A study of Mus musculus with 40 samples.

Results

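Genes of the AMPA receptor were read on expression arrays in 2 brain regions, prefrontal cortex and hippocampus, of mice with the Df(16)A deletion. All probe sets that the array annotation assigns to Gria1, Gria2, Gria3, Gria4, Cacng2, Cacng3 and Cacng8 were taken, which gave 16 of 45037 non-control probe sets for 7 genes, each probe set read on its own. The 4 groups were Df(16)A/+ prefrontal cortex, wild-type prefrontal cortex, Df(16)A/+ hippocampus and wild-type hippocampus, with 10 Affymetrix Mouse430_2 arrays in each and 40 in all. Df(16)A/+ mice carry, on 1 copy of chromosome 16, a deletion equivalent to the human 22q11.2 microdeletion, and the controls were their wild-type littermates. All mice were males of the C57BL/6 strain at 8 weeks of age, none was treated, and each array carried RNA of 1 dissected sample, so a change in the number of cells of 1 type and a change in RNA per cell cannot be told apart. None of the 7 genes lies on chromosome 16.

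AMPA receptors are tetramers of the GluA subunits, which the Gria genes encode, and carry most fast excitatory transmission in the forebrain. Gria2 sets whether the channel passes calcium, because its transcript is edited at the pore, and Gria1 is the subunit most tied to activity-dependent insertion at the synapse. Cacng2 (stargazin), Cacng3 and Cacng8 encode transmembrane AMPA receptor regulatory proteins (TARPs), which bring receptors to the surface, tie them to the scaffold PSD-95 and slow their closing.

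Signals are given in log2 units of GCRMA, and differences are Df(16)A/+ minus wild type with the standard error (SE) of the fit. limma was run on the probe sets whose signal exceeded 4 in 10 or more arrays of the comparison, and called means an adjusted p (Benjamini-Hochberg, over every probe set tested) below 0.05. The deletion was visible in every array: the mean over 19 measured genes of the deleted interval, each set against its wild-type mean, was -1.24 to -1.06 in the 10 Df(16)A/+ arrays and -0.103 to 0.0995 in the wild-type arrays of the prefrontal cortex, and -1.08 to -0.885 against -0.116 to 0.0658 in the hippocampus. Prodh, Dgcr8 and Zdhhc8 of that interval were at 51.1%, 60.3% and 39.0% of wild type in prefrontal tissue, and at 45.0%, 61.9% and 48.5% in hippocampal tissue. Of 7 hippocampal marker genes, 4 (Prox1, Tdo2, Lct and Dsp) did not pass the filter in the prefrontal cortex and all 7 passed in the hippocampus, and the choroid plexus markers ranged from 5.41 to 10.3 as a mean over 5 genes in wild-type hippocampus. The array records give the hybridization run and the chip lot, and both were unevenly spread over the genotypes. In the prefrontal cortex 3 wild-type arrays and 1 Df(16)A/+ array were hybridized in run 3, 7 and 5 in run 4, and 4 Df(16)A/+ arrays with no wild-type array in run 5, while all 6 arrays of lot 2 were wild type. In the hippocampus 9 wild-type and 2 Df(16)A/+ arrays were hybridized in run 2 and 8 Df(16)A/+ arrays with no wild-type array in run 3. The 2 arrays of lot 3, Df(16)A/+ replicates 3 and 5, correlated less than most with their group (median r of 0.9889 and 0.9882). Replicate 7 had 0.9889 as well, and the lowest was replicate 1 (0.9868), 1 of the 2 Df(16)A/+ arrays of run 2. Run 1 and lot 5 held 1 wild-type hippocampal array, replicate 9, which therefore added nothing to a fit with either block.

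The rank of each probe set within its own array described where the genes stood in the tissues, with no test, because the signal distributions stood apart between regions and joint normalization was not stated (95th percentile of the prefrontal arrays 11.6 to 11.7, of the hippocampal arrays 10.9 to 11.1). In wild type, both Gria1 probe sets ranked higher in the hippocampus: 1435239_at had a median percentile of 94.86 in prefrontal and 99.04 in hippocampal arrays, and 1448972_at had 94.84 and 98.36. The ranges over arrays did not overlap for either. Gria2 1434146_at stood at 99.66 and 99.78, near the top of the array in both tissues. Gria3 1420563_at had 94.86 in prefrontal and 89.77 in hippocampal arrays. Gria4 1435722_at, of the subunit gene known from interneurons and from the young brain, had 89.97 and 81.94. The TARP genes Cacng2 and Cacng3 ranked lower in the hippocampus as well, with 89.55 and 83.6 for Cacng2 1420596_at and 94.85 and 83.08 for Cacng3 1450520_at. The 2 Cacng8 probe sets were dim throughout, although Cacng8 is known as the TARP most abundant in the hippocampus: 1451864_at had a median wild-type signal of 0.70 in prefrontal and 1.33 in hippocampal arrays, and 1459579_at had 3.48 and 3.06.

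**Figure D1:**
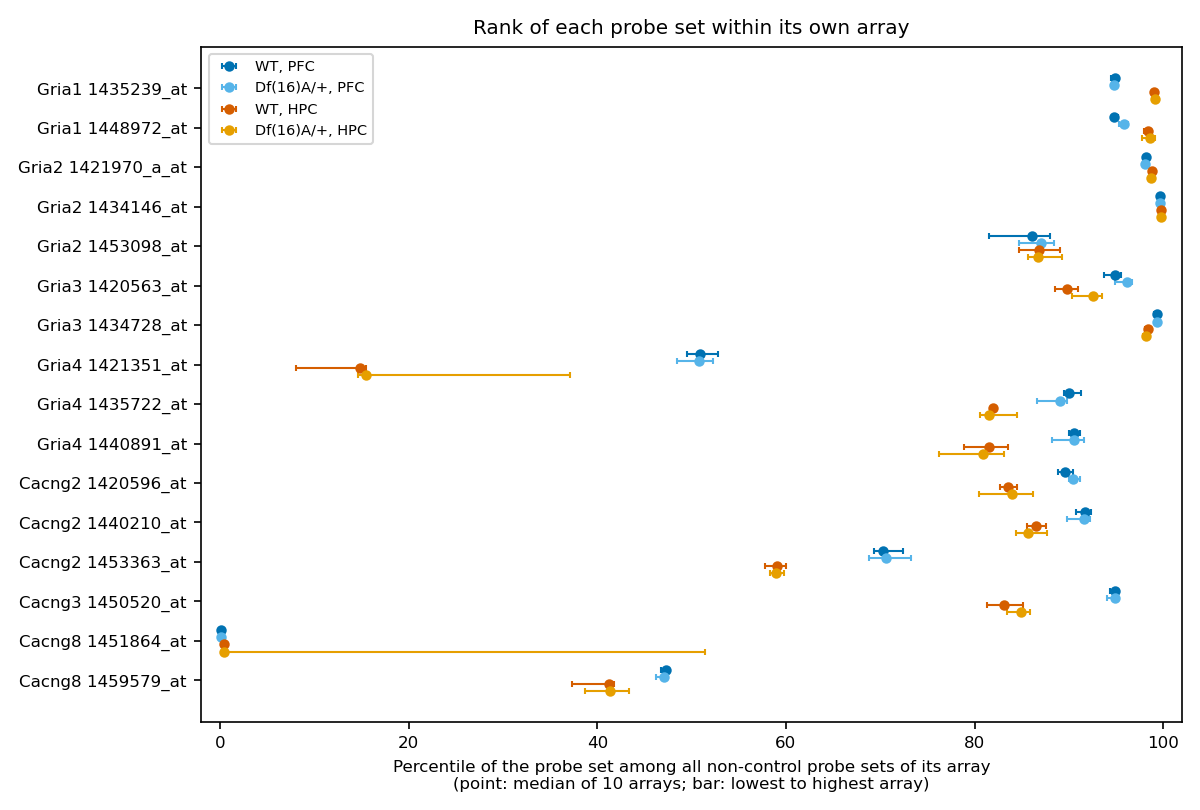
Percentile of each of the 16 probe sets among all non-control probe sets of its own array (x axis) by group, with a point at the median of 10 arrays and a bar from the lowest to the highest array. Gria1 lies further right in the hippocampus than in the prefrontal cortex, Gria4, Cacng2 and Cacng3 lie further left, and the Df(16)A/+ hippocampal bar of Cacng8 1451864_at reaches 51.4.

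In each region 13 of the 16 probe sets passed the filter. Gria4 1421351_at and both Cacng8 probe sets did not, so Cacng8 was not tested in either region. Gria4 1421351_at had medians of 3.88 in wild type and 3.85 in Df(16)A/+ prefrontal cortex and of 2.23 and 2.30 in the hippocampus.

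Whether the deletion goes with altered AMPA receptor transcripts was asked first in the prefrontal cortex, where 4 of the 13 tested probe sets were called. Gria1, Gria3 and Cacng2 were higher in Df(16)A/+ at 1 probe set each, and Gria4 was lower at 1. Among all 21653 probe sets tested there, 18.5% were called (5.94% higher and 12.5% lower) and the members' share is given beside that background, with no test of the list. The median difference of the 13 was -0.0307, from -0.282 to 0.324, against -0.0202 over all probe sets.

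Gria1 1448972_at ran from 11.55 to 11.73 with a median of 11.64 in wild-type prefrontal cortex, and from 11.76 to 12.08 with a median of 11.91 in Df(16)A/+. All 10 Df(16)A/+ arrays stood above the highest wild-type array. How many of all probe sets parted as far between the genotypes was not counted. The difference was 0.27 ± 0.04, or 121% of the wild-type signal (adjusted p = 0.000327). The other Gria1 probe set, 1435239_at, ran from 11.50 to 11.71 and from 11.50 to 11.67, and its difference of -0.03 ± 0.03 was not called (adjusted p = 0.562).

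None of the 3 Gria2 probe sets was called. Gria2 1434146_at, the brightest of them, had medians of 14.23 and 14.22 and a difference of 0.02 with a 95% interval of -0.06 to 0.10. Gria2 1421970_a_at had -0.07 ± 0.03 (unadjusted p = 0.0326), and 1453098_at had 0.18 ± 0.09.

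Gria3 encodes a subunit that pairs mostly with GluA2. Its probe set 1420563_at ran from 11.32 to 11.84 with a median of 11.66 in wild type, and from 11.63 to 12.22 with a median of 12.04 in Df(16)A/+. Of the Df(16)A/+ arrays 8 stood above the highest wild-type array, and the other 2, replicates 1 and 2, lay within the wild-type range. The difference was 0.32 ± 0.07, or 125% of wild type (adjusted p = 0.00502). The brighter Gria3 probe set, 1434728_at, had -0.01 with a 95% interval of -0.10 to 0.09.

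Gria4 1435722_at ran from 10.45 to 10.72 with a median of 10.56 in wild type, and from 10.01 to 10.51 with a median of 10.34 in Df(16)A/+. All 10 Df(16)A/+ arrays lay below the wild-type mean and 8 below the lowest wild-type array. The difference was -0.28 ± 0.06, or 82.3% of wild type (adjusted p = 0.00500). Gria4 1440891_at had -0.10 ± 0.06 and was not called (unadjusted p = 0.141). Pvalb, a marker of one class of interneurons, was also lower in Df(16)A/+ prefrontal cortex (-0.25, adjusted p = 0.0273), whereas Gad1 was higher (0.11, adjusted p = 0.0385), and all 6 interneuron markers together averaged 11.31 to 11.45 in wild type and 11.27 to 11.52 in Df(16)A/+. Their part in the Gria4 difference was not tested.

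Among the TARP genes, Cacng2 1420596_at ran from 10.36 to 10.63 with a median of 10.46 in wild type, and from 10.54 to 10.76 with a median of 10.62 in Df(16)A/+. Every Df(16)A/+ array was above the wild-type mean and 3 were above the highest wild-type array, so the groups overlapped. The difference was 0.16 ± 0.04, or 112% of wild type (adjusted p = 0.00699). Cacng2 1440210_at had -0.11 ± 0.06 and 1453363_at had -0.04 ± 0.07, and neither was called. Cacng3 1450520_at, the single probe set of that gene, had -0.04 ± 0.06.

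**Figure D2:**
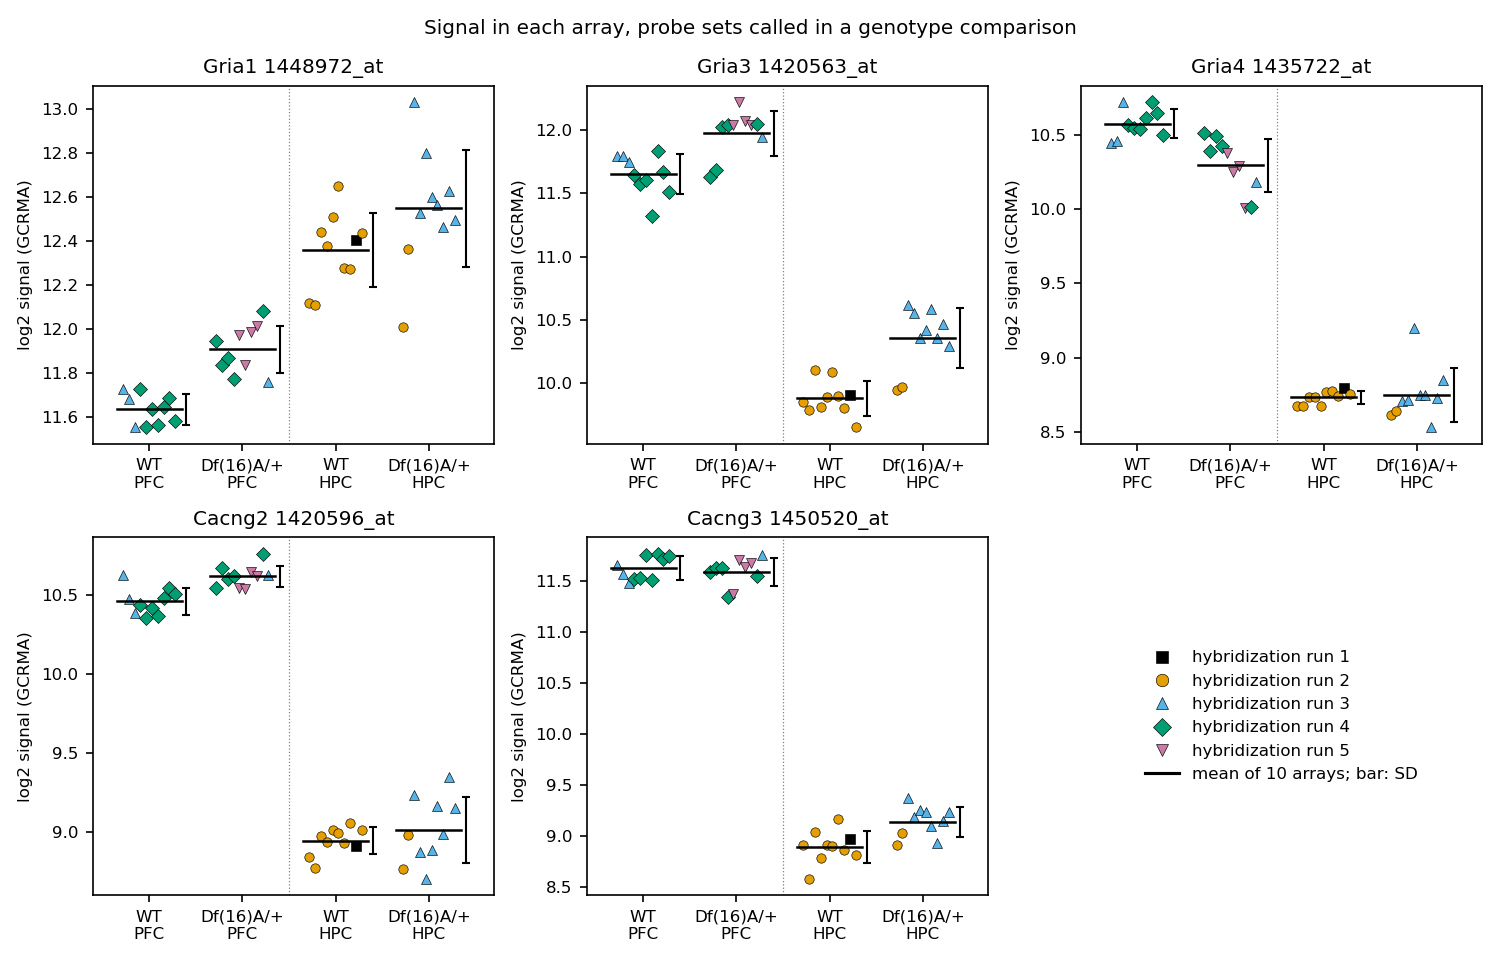
Signal (log2 GCRMA) of the 5 probe sets called in at least 1 genotype comparison, 1 point per array, by group and with the marker showing the hybridization run; the line is the mean of 10 arrays and the bar its SD. The Df(16)A/+ prefrontal points of Gria1 all lie above the wild-type points, and the 2 Df(16)A/+ hippocampal points of run 2 lie among the wild-type points for Gria3.

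The prefrontal differences were then read within batches. Within run 4, the run with most arrays of both genotypes (7 wild-type and 5 Df(16)A/+), Gria1 1448972_at averaged 11.63 and 11.90 (0.27, adjusted p = 0.0312), and within lot 1 (4 wild-type and 10 Df(16)A/+ arrays) the difference was also 0.27 (adjusted p = 0.0439). With the run as a block all 4 probe sets were called, beside 9.25% of all probe sets. With the lot as a block, within run 4 and within lot 1, the Gria1 probe set alone was called, beside 4.55%, 2.36% and 1.52% of all. Gria3 1420563_at then had 0.26, 0.29 and 0.26 (adjusted p = 0.114, 0.108 and 0.151). Gria4 1435722_at had -0.24, -0.22 and -0.24 (adjusted p = 0.101, 0.121 and 0.183), and Cacng2 1420596_at had 0.12, 0.20 and 0.12 (adjusted p = 0.152, 0.0566 and 0.211). The lot block and lot 1 alone rest on the same contrast, since lot 2 held no Df(16)A/+ array. Within run 4, 6 of the 7 wild-type arrays were of lot 2 and all 5 Df(16)A/+ arrays of lot 1. Within lot 1, 3 of the 4 wild-type arrays were of run 3 and 4 of the 10 Df(16)A/+ arrays of run 5. Neither single batch was thus free of the other. With run and lot together as blocks the genotype comparison rested on 4 wild-type and 6 Df(16)A/+ arrays of lot 1, with 3 against 1 in run 3 and 1 against 5 in run 4. Gria1 1448972_at then had 0.22 ± 0.08 (adjusted p = 0.136), Gria3 1420563_at 0.28 ± 0.12, Gria4 1435722_at -0.24 ± 0.11 and Cacng2 1420596_at 0.13 ± 0.07 (adjusted p = 0.221, 0.274 and 0.312). None of the 4 was called, beside 2.1% of all probe sets. The 1 probe set called in that fit was Gria2 1453098_at (0.51 ± 0.13, adjusted p = 0.0431), for which the single wild-type array of run 4 in lot 1, replicate 10, was the lowest of its group.

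In the hippocampus 2 of the 13 tested probe sets were called, both higher in Df(16)A/+: Gria3 1420563_at and Cacng3 1450520_at. Over all 21153 probe sets tested there, 6.47% were called, 5.19% of them higher and 1.28% lower as shares of those tested. The median difference of the members was 0.0154, from -0.13 to 0.478, against 0.0159 over all probe sets.

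Gria3 1420563_at ran from 9.65 to 10.10 with a median of 9.87 in wild-type hippocampus, and from 9.94 to 10.62 with a median of 10.39 in Df(16)A/+. The groups overlapped through 2 Df(16)A/+ arrays, and the other 8 stood above all wild-type arrays. The difference was 0.48 ± 0.08, or 139% of wild type (adjusted p = 0.00230), the largest among the members in either region. The other Gria3 probe set, 1434728_at, had -0.10 ± 0.06 and was not called (unadjusted p = 0.107).

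Cacng3 1450520_at ran from 8.58 to 9.16 with a median of 8.91 in wild type, and from 8.91 to 9.37 with a median of 9.17 in Df(16)A/+. All 10 Df(16)A/+ arrays were above the wild-type mean and 5 above the highest wild-type array. The difference was 0.25 ± 0.07, or 119% of wild type (adjusted p = 0.0331). The call was kept in 9 of 20 fits that left out 1 array each, and without the 2 arrays of lot 3 the difference was 0.20 (adjusted p = 0.106).

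Gria1 was not called in the hippocampus. Its probe set 1448972_at had 0.19 ± 0.10 (adjusted p = 0.227), with arrays from 12.11 to 12.65 in wild type and from 12.01 to 13.03 in Df(16)A/+. The 2 highest of these were the arrays of lot 3 (mean 12.91), and the difference without them was 0.10. Gria1 1435239_at had 0.11 ± 0.06 (0.03 without those 2 arrays). Gria2 1434146_at had -0.13 ± 0.06 (unadjusted p = 0.0549), Gria4 1435722_at had 0.02 ± 0.06 and Cacng2 1420596_at had 0.07 ± 0.07, none of them called. The remaining tested probe sets lay between -0.05 (Cacng2 1440210_at) and 0.08 (Gria2 1453098_at).

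The hippocampal differences were also read by hybridization run and chip lot. The 2 Df(16)A/+ arrays of run 2 had Gria3 1420563_at signals of 9.94 and 9.96, inside the range of 9.65 to 10.10 of the 9 wild-type arrays of that run, whereas the 8 Df(16)A/+ arrays of run 3, which held no wild-type array from the hippocampus, had 10.29 to 10.62. With the run as a block the Gria3 difference was 0.08 ± 0.10 (adjusted p = 1.00) and that of Cacng3 0.09 ± 0.11, and no member was called, beside 0.156% of all probe sets. That fit compares the genotypes through the 2 Df(16)A/+ and 9 wild-type arrays of run 2 alone. A lost call there does not show that a difference is absent. For Gria1 1448972_at the 2 Df(16)A/+ arrays of run 2 averaged 12.19 against 12.35 in the 9 wild-type arrays, a difference of -0.17. With the chip lot as a block Gria3 1420563_at was called (0.41 ± 0.09, adjusted p = 0.029) and Cacng3 was not (0.21, adjusted p = 0.136), beside 2.06% of all probe sets. For the 8 arrays of run 3, run and genotype cannot be told apart.

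**Figure D3:**
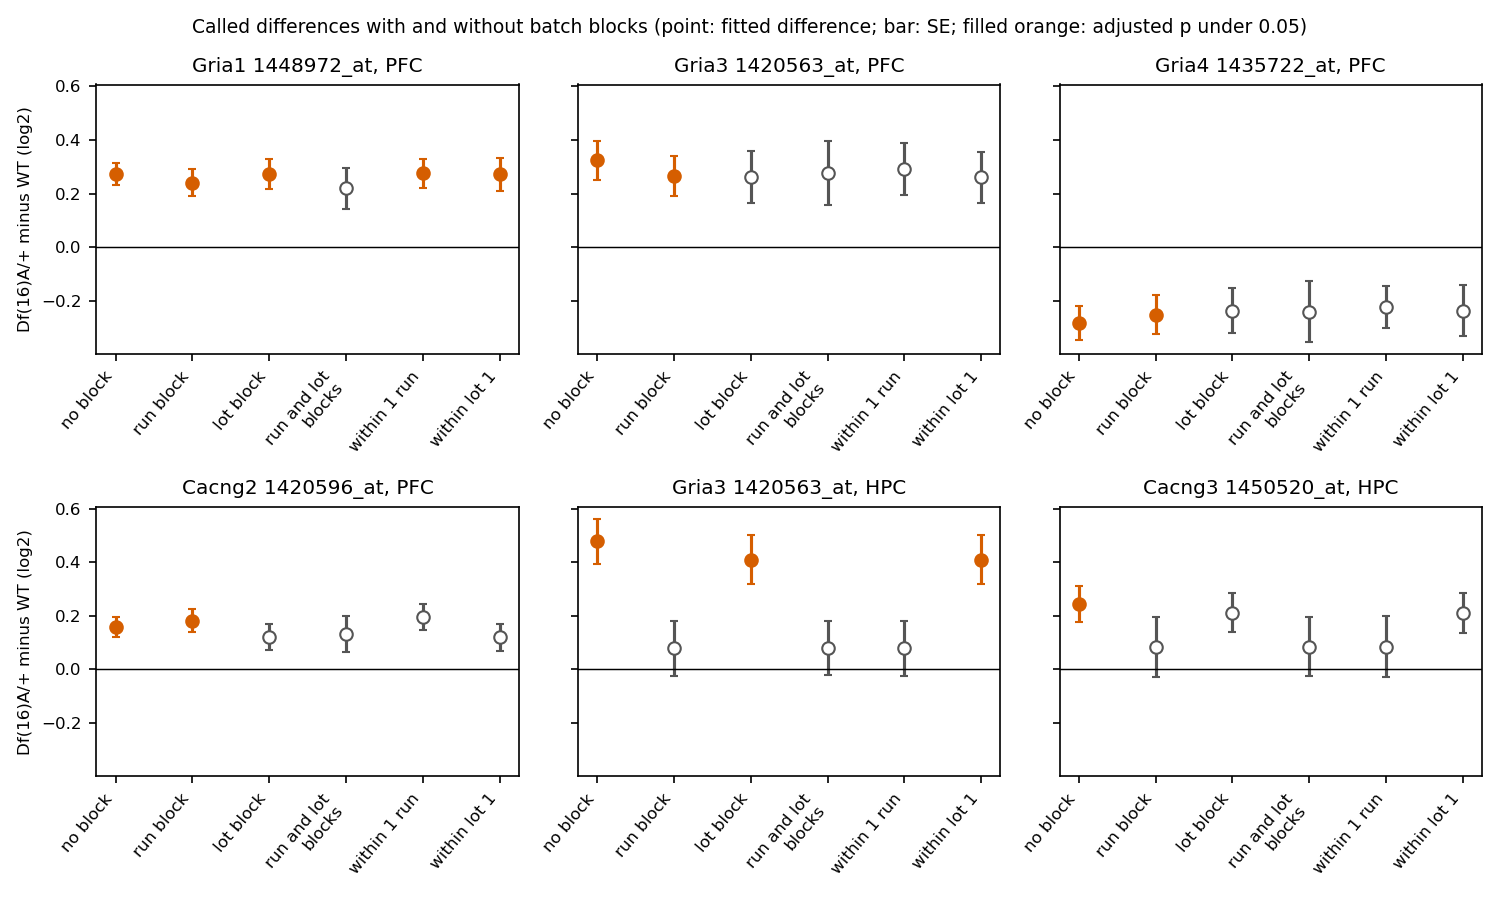
Fitted difference, Df(16)A/+ minus wild type (log2, y axis), of the 6 called results without a block, with run, lot or both as blocks, and within 1 run (run 4 in the prefrontal cortex, run 2 in the hippocampus) or within lot 1; bars are SE and filled points are called. The prefrontal values keep their sign while most lose the call, and the 2 hippocampal values fall to 0.08 and 0.09 with the run block. The hippocampal run block compares the genotypes through run 2 alone, as the fit within run 2 does.

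**Figure D4:**
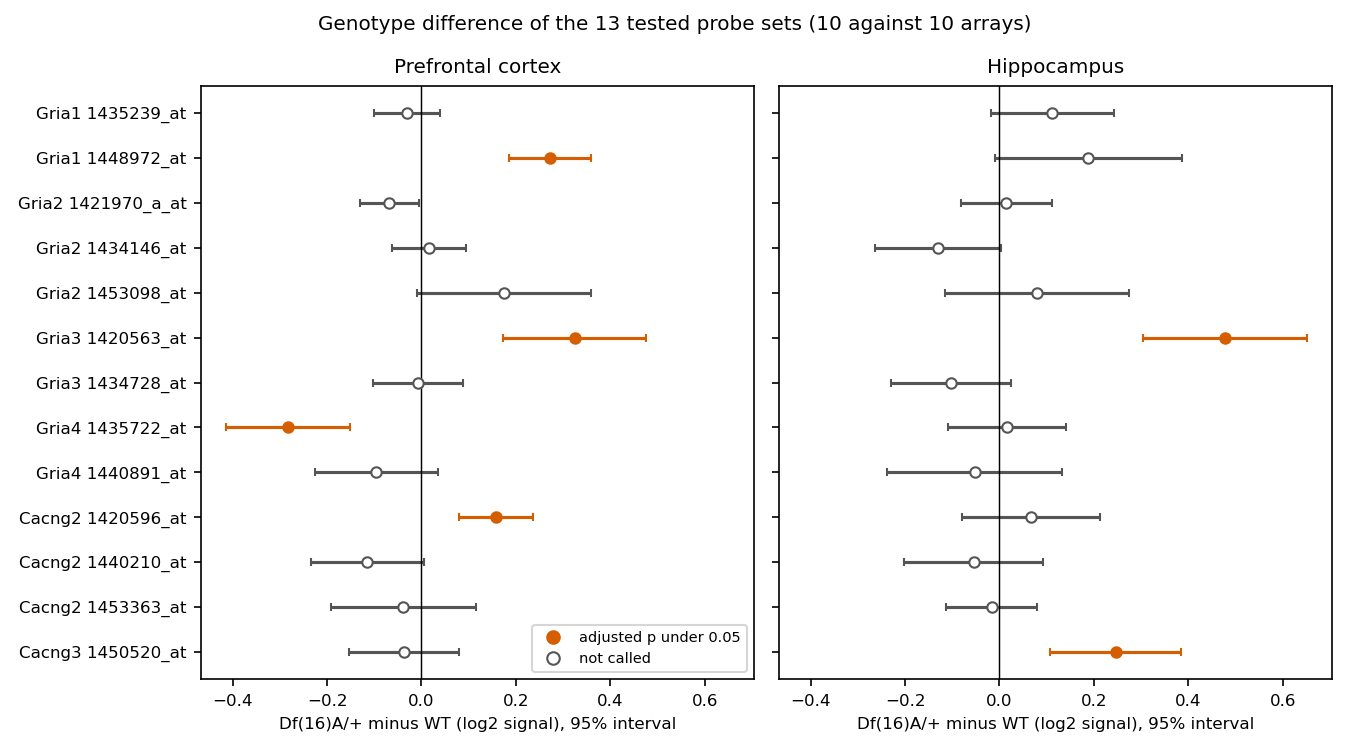
Difference, Df(16)A/+ minus wild type (log2, x axis), of the 13 tested probe sets in each region with its 95% interval, from 10 against 10 arrays; filled points are called. The left panel has 4 called points and the right panel 2, and each gene with a called probe set and another tested one has an uncalled probe set beside it.

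Whether the genotype difference itself differed between the regions was tested as the hippocampal minus the prefrontal difference over all 40 arrays. The arrays were taken as independent, although the sample labels do not say whether both tissues came from the same mice. No member was called, where 2.53% of 22586 probe sets were. An unadjusted p under 0.05 was found for 3 of the 13 members, beside 4693 of the 22586 probe sets. Gria4 1435722_at, called lower in the prefrontal cortex and not called in the hippocampus, had 0.30 ± 0.09 (adjusted p = 0.0546). Cacng3 1450520_at, called higher in the hippocampus and not called in the prefrontal cortex, had 0.28 ± 0.09 (adjusted p = 0.0663), and Gria1 1435239_at had 0.14 ± 0.07 (adjusted p = 0.240). Gria3 1420563_at, called in both regions, had 0.15 ± 0.11 with a 95% interval of -0.07 to 0.38, and Gria1 1448972_at had -0.08 with an interval of -0.30 to 0.13. With the replicate number taken to mark the mouse, as a random block, Gria4 1435722_at was called (0.30, adjusted p = 0.0483) and Cacng3 was not (adjusted p = 0.0604). With the run as a block the Gria4 value was 0.15 and the Cacng3 value 0.13.

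Probe sets of 1 gene can read different stretches of its transcripts, and where these probe sets lie was not known here. Some of them parted within the same arrays. The difference between 2 probe sets of a gene was taken array by array for 9 pairs and is described with no test. For Gria1 in the prefrontal cortex, 1448972_at minus 1435239_at had a median of 0.00 (from -0.14 to 0.21) in wild type and of 0.34 (from 0.10 to 0.46) in Df(16)A/+, and 9 of 10 Df(16)A/+ arrays lay above all wild-type arrays. For Gria3, 1420563_at minus 1434728_at had medians of -2.13 and -1.81 in prefrontal and of -2.52 and -1.90 in hippocampal arrays, with 8 Df(16)A/+ arrays above all wild-type arrays in each. In the hippocampus the 2 arrays that did not were those of run 2, with -2.58 and -2.45. For Cacng2 in the prefrontal cortex, 1420596_at minus 1440210_at had medians of -0.39 and -0.16, with 9 arrays above. For Gria4 in the prefrontal cortex, 1435722_at minus 1440891_at had medians of -0.09 and -0.22 with 7 Df(16)A/+ arrays below and 2 above all wild-type arrays. In the hippocampus the same pairs had medians of -0.53 and -0.40 for Gria1, 0.07 and 0.06 for Gria4, and -0.40 and -0.29 for Cacng2. Each pair given here holds a probe set called in the prefrontal cortex. The called differences in Gria1, Gria3 and Cacng2 were differences of 1 probe set of the gene, and no other probe set of these genes was called in either region in these fits. With array weights, the one setting run that called another, Cacng2 1440210_at was called lower in the prefrontal cortex (-0.15, adjusted p = 0.047), opposite in sign to 1420596_at.

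**Figure D5:**
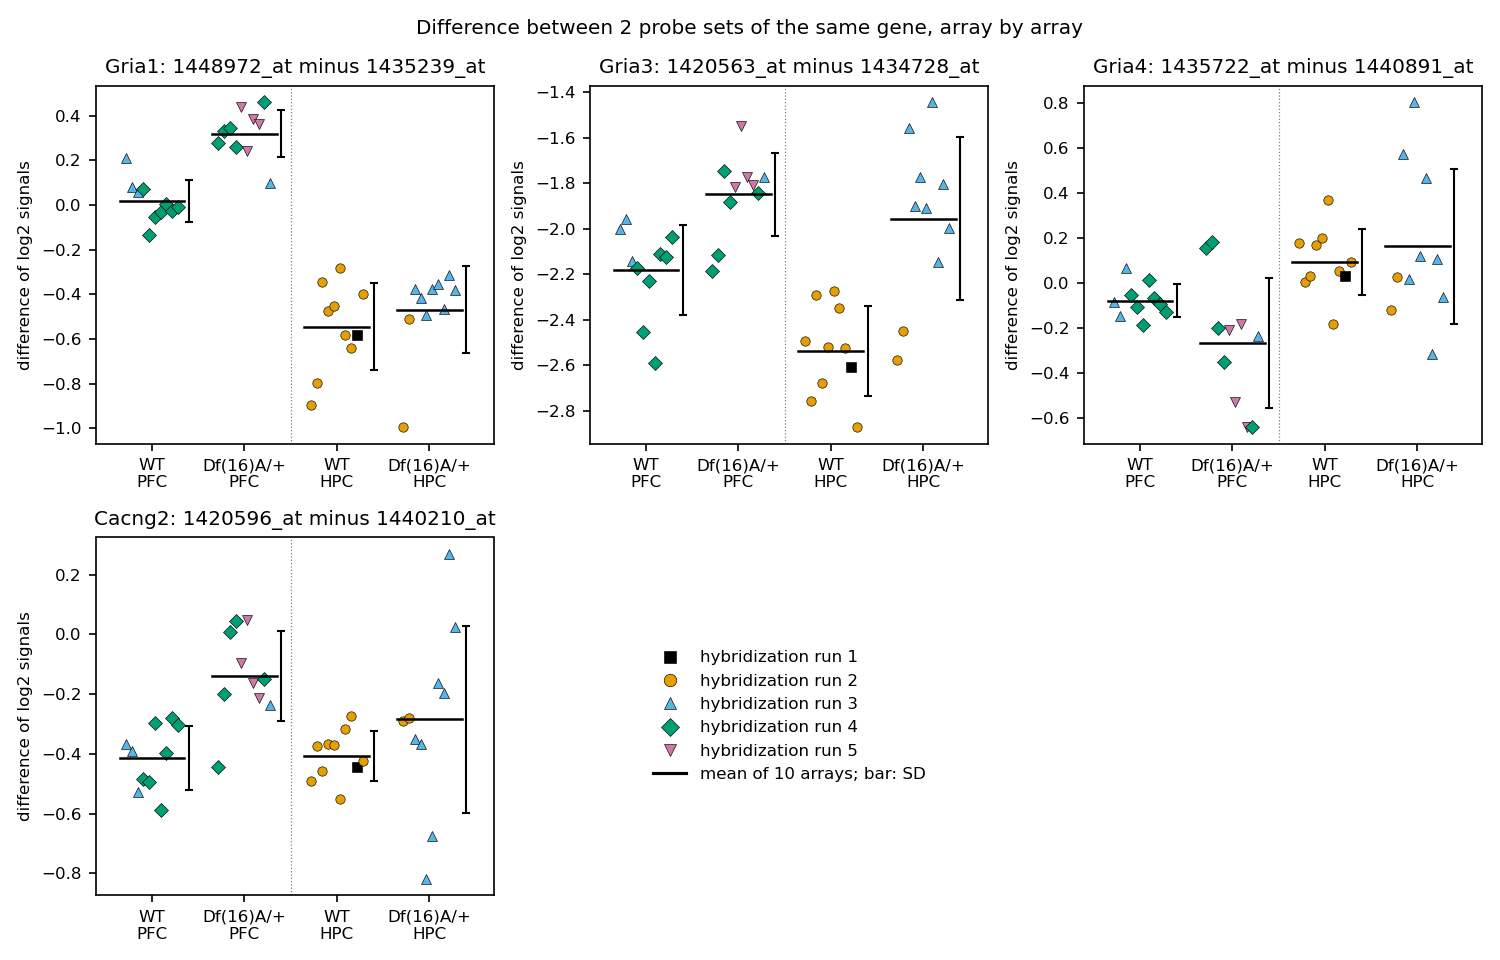
Difference between the log2 signals of 2 probe sets of the same gene in each array (y axis) by group, with the marker showing the hybridization run; the line is the mean of 10 arrays and the bar its SD. The Df(16)A/+ prefrontal points lie above the wild-type points for Gria1 except for the 1 array of run 3, and the Gria4 differences spread further in Df(16)A/+ than in wild type.

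Genes that act on AMPA receptors were read from a list of 62, of which 57 were on the array, with 1 probe set each. In the prefrontal cortex 4 of 55 tested genes were higher and 5 lower, beside the 5.94% and 12.5% of all probe sets, and the list median was -0.0246. The higher genes were Dlg4, which encodes the scaffold PSD-95 (0.49 ± 0.09, adjusted p = 0.00147), Shisa7 (0.21 ± 0.06) and Cnih2 (0.15 ± 0.04), both auxiliary proteins, and Prkacb, a catalytic subunit of protein kinase A (0.09 ± 0.03). The 4 lower genes with the smallest p were Cpt1c, a partner of GluA1 in the endoplasmic reticulum (-0.20 ± 0.05), Vps35 of the retromer, which returns receptors from endosomes (-0.09 ± 0.03), Olfm3, a secreted olfactomedin (-0.19 ± 0.06), and Exoc4 of the exocyst (-0.18 ± 0.05). By role, 2 of 16 auxiliary and biogenesis genes rose and 2 fell, 1 of 23 scaffold and trafficking genes rose and 2 fell, and 1 of 16 kinase, phosphatase and editing genes rose and 1 fell. With the run as a block 3 list genes were called, with the lot 2 and with both 0, beside 9.25%, 4.55% and 2.1% of all probe sets.

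In the hippocampus 4 of 56 tested genes of that list were higher and none lower, beside 5.19% and 1.28%, with a list median of 0.0432. They were Dlg4 (0.72 ± 0.13, adjusted p = 0.00354), Nptx2, a pentraxin that gathers receptors at the synapse (0.31 ± 0.06), Cnih2 (0.30 ± 0.06) and Epb41l1, which links GluA1 to actin (0.25 ± 0.07). None was called with the run as a block, beside 0.156% of all probe sets, and Dlg4 had 0.0019 there. That fit compares the genotypes through the 2 Df(16)A/+ arrays of run 2 alone. Dlg4 and Cnih2 were called higher in both regions. Arc, which drives receptor removal and is an immediate early gene, had -0.62 ± 0.30 in the prefrontal cortex and was not called (adjusted p = 0.149).

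Of the 5 excitatory neuron markers on the array, 1 was called in prefrontal and 2 in hippocampal tissue, all higher in Df(16)A/+. Slc17a7, the vesicular glutamate transporter, was higher in Df(16)A/+ in both regions (prefrontal 0.32, adjusted p = 0.00145; hippocampal 0.38, adjusted p = 0.00106), and Neurod2 was higher in the hippocampus (0.25, adjusted p = 0.0439). The others were not called: Neurod6 had -0.01 and -0.05 in prefrontal and hippocampal tissue, Tbr1 -0.01 and 0.04, Camk2a 0.08 and 0.19, and Neurod2 -0.01 in the prefrontal cortex. Over the 5 excitatory markers on the array the mean signal was 11.64 to 11.80 in wild type and 11.70 to 11.90 in Df(16)A/+ prefrontal cortex, and 10.70 to 10.91 and 10.84 to 11.10 in the hippocampus. Among markers of glia and vessels in the prefrontal cortex, 2 of 6 astrocyte genes were higher, Slc1a2 (0.15, adjusted p = 0.00439) and Slc1a3 (0.24, adjusted p = 0.00298). Lower there were the microglial C1qa (-0.29, adjusted p = 0.0477), 1 of 5 of its list, the endothelial Slco1a4 (-0.58, adjusted p = 0.0134), 1 of 3 tested, and the meningeal Ogn (-0.78, adjusted p = 0.0303), 1 of 5. The astrocyte list averaged 12.14 to 12.44 in wild type and 12.23 to 12.49 in Df(16)A/+, and the microglial list 9.36 to 9.81 and 9.21 to 9.53. No marker of these 4 lists was called in the hippocampus. Of the regional markers in the hippocampus, 2 of 7 hippocampal genes were higher, Prox1 (0.27, adjusted p = 0.0331) and Tdo2 (0.32, adjusted p = 0.0255). So was 1 of 4 tested neocortical genes, Fezf2 (0.21, adjusted p = 0.0417). In the prefrontal cortex the striatal Ppp1r1b, 1 of 3 tested, was higher (0.45, adjusted p = 5.58e-05). The neocortical Rspo1, 1 of 5, was lower there (-0.38, adjusted p = 0.00648). The part of any of these markers in the AMPA receptor differences was not tested.

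The genes most like each member were sought among probe sets with 1 gene name by the Pearson correlation of the values, less the genotype mean, over the 20 arrays of a region. In the prefrontal cortex Gria2 1434146_at went most closely with Ddx5 (r = 0.889), Gria3 1434728_at with Lasp1 (0.864), Gria4 1440891_at with Tmem30a (0.861), Cacng2 1440210_at with Ubxn4 (0.868), Cacng3 1450520_at with Rad52 (0.846) and Gria1 1448972_at with Tnpo3 (0.798). In the hippocampus the closest were Actr3 for Gria2 1434146_at (0.954), Thoc1 for Gria3 1434728_at (0.92), Man2a2 for Cacng2 1440210_at (0.918), Ttc39c for Gria1 1435239_at (0.917), Ankrd17 for Gria4 1435722_at (0.906) and Rtn4 for Cacng3 1450520_at (0.886). The closest genes stood little ahead of others, since the gene of rank 10 had r of 0.757 to 0.821 in the prefrontal cortex and of 0.842 to 0.937 in the hippocampus. No member had the same closest gene in both regions. Each was read at its brightest probe set in the region, which differed between regions for Gria1 and Gria4. The second genes were Rab6a, Ccdc88a, Atl1, Bcl11a, Srxn1 and Sema3e in the prefrontal cortex and Cnbp, Ppp1cb, Stk24, Miip, Cemip2 and Ttll1 in the hippocampus, in the same order of members, and the arrays of a region shared runs and lots.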

How the data were processed

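Each array measured biotin-labelled total RNA (Trizol, then RNeasy, per the labels' protocols) of 1 sample on an Affymetrix Mouse430_2 chip. The deposited values are log2 signals made with GCRMA, per the submitters' processing notes; which version and settings were used, and on which arrays jointly, was not given in the sources used here. Distributions of the arrays were close within a region and apart between regions, so each region was fitted on its own. The array records served for hybridization run and chip lot alone, and 2 arrays lacked a scan record.

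Groups came from the sample titles. Of 45101 probe sets, 64 controls were left out, and genes came from the annotation supplied for the array, where 34945 probe sets have 1 gene. limma 3.58.1 in R 4.3.3 was applied to the log2 values (lmFit, eBayes, two-sided), 10 against 10 arrays per region and a contrast of 4 group means over 40 arrays for the interaction, in which a constant offset between regions cancels and a difference of scale does not. The filter was a signal above 4 in at least 10 arrays, with Benjamini-Hochberg adjustment at 0.05. Blocks with correlation used statmod 1.5.0, and the data.table package was version 1.17.8. The fit was tested on simulated data that held no run or lot effect, so that test does not bear on the batches. Promoter sequences are not reported here. Precision is limited by the number of arrays.

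The members and lists were chosen with earlier results of these data known. Named genes were all member probe sets, the called pathway genes with the 4 smallest p per direction and region, 3 interval genes and the 2 genes most like each member; Arc, the markers and the other genes of the list were named after their values were seen, and pathway genes were read at the probe set with the highest mean. Alternatives were 2 filters, 2 normalizations, another variance model, array weights, batch blocks, single batches, a beta-actin 3′ minus 5′ covariate, the replicate number as a block, 1 fit of all arrays, and leaving out each array; 2 more were added after seeing the data.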

Additional observations from a re-analysis of the deposited data

Results flagged for a closer look

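In 6 of the 64 groups of 10 arrays (16 probe sets in 4 groups), 1 array stood apart by Dixon's ratio of its gap to the range at the 95% level, where chance alone gives about 5 in 100 groups. In Df(16)A/+ hippocampus, replicate 3 was highest for Gria2 1421970_a_at, at 12.99 against 12.69 for the next (ratio 0.642), and replicate 5 was highest for Gria4 1435722_at, at 9.20 against 8.85 (ratio 0.524). These are the 2 arrays of chip lot 3. In wild-type prefrontal cortex, replicate 10 was lowest for Gria2 1453098_at, at 9.29 against 9.72 (ratio 0.502). In Df(16)A/+ prefrontal cortex, replicate 9 was highest for Cacng2 1453363_at, at 8.25 against 7.89 (ratio 0.531). The other 2 concerned probe sets below the filter in wild-type hippocampus: Gria4 1421351_at, lowest in replicate 2 (ratio 0.528), and Cacng8 1459579_at, highest in replicate 1 (ratio 0.511).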

How the results depend on the processing

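The prefrontal count of 4 called members was 1 with the lot as a block, 1 within run 4, 1 within lot 1, 1 with run and lot as blocks, and 0 with both blocks and wild-type replicate 10 left out, a setting chosen after seeing the data that leaves 3 wild-type arrays against 1. It was 3 to 5 under all other settings, where 6.94% to 23.3% of all probe sets were called, and 4 to 5 when 1 array was left out. The hippocampal count of 2 was 1 with no filter, with the lot block, within lot 1, with the beta-actin covariate and without the 2 arrays of lot 3 (chosen after seeing the data), 0 with the run block, with both blocks and within run 2, and 1 to 2 when 1 array was left out. The hippocampal settings that gave 0 all rest on the same contrast, that of the 2 Df(16)A/+ and 9 wild-type arrays of run 2. They called 0.156%, 0.18% and 0.147% of all probe sets. With no filter, the lot block, lot 1 alone and the beta-actin covariate, 1.8%, 2.06%, 1.88% and 2.99% of all were called. The interaction count of 0 was 1 with a filter above 6 and 2 with arrays centred on their median. It was 1 with the intensity trend and robust variance, 2 with array weights and 1 with the replicate block (animal by number, random). In that order these settings called 3.87%, 4.64%, 2.91%, 5.14% and 3% of all probe sets, against 2.53% in the main fit. The interaction count was 0 to 2 when 1 array was left out, the probe sets being Gria4 1435722_at and Cacng3 1450520_at. No called value changed its sign under any setting run. The prefrontal pathway count of 9 was 3, 2 and 0 with run, lot and both as blocks, beside 9.25%, 4.55% and 2.1% of all probe sets. The hippocampal one of 4 was 0, 3 and 0, beside 0.156%, 2.06% and 0.18%. The causes were not tested. The replicate block within a region left 4 and 2 members called. Same-numbered arrays of the 2 genotypes deviated together (correlation over 0.1) in 2 of 10 prefrontal pairs and 4 of 10 in hippocampal arrays. Same-numbered arrays of the 2 regions did so in 5 of 10 pairs in each genotype (medians 0.0923 and 0.111). The numbers were therefore not taken to pair samples in the main fits.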

Other observations

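Cacng8 1451864_at, below the filter in both regions, held between 1.29 and 1.40 in all 10 wild-type hippocampal arrays and between 1.32 and 1.36 in 7 of the Df(16)A/+ arrays, but 3.76 in Df(16)A/+ replicate 3, 2.75 in replicate 6 and 1.69 in replicate 5. Replicate 3 was also the highest Df(16)A/+ hippocampal array for Gria1 1448972_at (13.03), Gria3 1420563_at (10.62) and Cacng3 1450520_at (9.37).

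All 5 member results called higher came from probe sets whose annotation cites a RefSeq mRNA record, a grouping chosen after the values were seen. Of the 5 tested members of that kind, 3 were higher in prefrontal and 2 in hippocampal tissue, and of the other 8 none was higher in either region and 1 was lower in the prefrontal cortex. Over all named probe sets those with a RefSeq record were not more often higher in the prefrontal cortex (4.74% against 6.33%), and in the hippocampus the shares were 5.9% and 5.37%. They were more often lower in the prefrontal cortex (19.9% against 11.4%), and about equally often in the hippocampus (1.24% against 1.26%).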
